A study of Mus musculus with 8 samples.

Results

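The RNA of 2 independent experiments on the same kind of culture was compared, library by library, to describe how far the cells and their RNA differed from one experiment to the next. All 8 libraries of the series entered: the 4 numbered replicate 1, called experiment 1 here, and the 4 numbered replicate 2, called experiment 2. Cultures were spinal motor neurons differentiated from mouse HBG3 embryonic stem cells, a single line that carries an HB9::GFP reporter (green fluorescent protein under the promoter of the motor neuron gene Mnx1), and they were kept for 3 days after dissociation and plating in medium with BDNF, CNTF, GDNF, ascorbic acid and a Rhok inhibitor. Each experiment gave 1 Input library, made from RNA before capture, and 3 pull-down libraries made from RNA fished out with biotin-tagged probes 20 nt long: a control set called LacZ, and 2 sets called ODD and EVEN that hybridise to the long noncoding RNA Lhx1os. No label names a sorting step or a number of cultures, and no group differed from another in genotype.

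In the embryonic spinal cord, progenitors that express Olig2 under the influence of retinoic acid and Sonic hedgehog first make motor neurons, and the same domain later makes oligodendrocyte precursors, the cells that go on to myelinate axons. A stem cell culture made with these signals therefore holds motor neurons at different stages beside progenitors, interneurons and some glia. Immediate early genes are transcription factors and signalling regulators that neurons switch on within minutes of calcium entry, growth factors or handling. A hybridisation pull-down recovers a small part of the RNA, so what it holds also depends on transcript length, structure and integrity.

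The 4 libraries of an experiment share material, and the experiment itself has 1 sample on each side. A gene was called different where edgeR's quasi-likelihood test, with group as a block, gave an adjusted p below 0.05 and the difference in level, as counts scaled to library size (CPM), had the same sign in all 4 groups. The adjusted p therefore measures whether a difference was alike in the 4 kinds of library, not how much cultures vary. CPM values below are given in the order Input, LacZ, ODD and EVEN, and fold changes are experiment 2 over experiment 1 on the log2 scale unless a fold is written out. A gene could pass the filter on low counts through the libraries of 1 experiment, so a count over a list of mostly low genes is a description only. These are bulk libraries, so fewer cells of a type and less RNA per cell cannot be told apart.

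Of 16524 genes tested, 4393 (26.6%) were called, 2443 (14.8%) higher in experiment 2 and 1950 (11.8%) higher in experiment 1. At least 2-fold differences made up 699 (4.23%) and 400 (2.42%) of the genes tested. The same sign in all 4 groups was found for 4109 genes (24.9%) higher in experiment 2 and for 3468 (21%) higher in experiment 1, and the 4 libraries of one experiment lay wholly above the 4 of the other for 2099 (12.7%) and 1754 (10.6%). Another 138 genes passed the adjusted p with signs that differed between groups. The median log2 fold change of all genes was 0.01. Total counts were 20515501 and 24628435 in Input and between 7632775 and 12563449 in the pull-downs. Leaving out either ODD library lowered the calls to 1205 or 1209 higher in experiment 2 and to 957 or 959 higher in experiment 1, and either Input library raised them, to 3246 or 3250 and to 3416 or 3428. Without either LacZ library they were 1354 or 1368 and 1097 or 1101, and without either EVEN library 1475 or 1485 and 1079 or 1080. A left-out library leaves its partner with no counterpart, so both libraries of a group act alike here, and a drop also reflects a fit with fewer libraries.

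The largest differences were in genes of the oligodendrocyte lineage, all lower in experiment 2. Of 26 genes of the lineage, from precursor to myelin, 22 could be tested; all 22 were called higher in experiment 1, against 11.8% of all genes, and their median log2 fold change was -2.64. The list was drawn up after values had been seen, and 4 late myelin genes (Mog, Mobp, Opalin and Ermn) were too low to test in either experiment. The summed level of the list was 3239, 2215, 2285 and 2282 CPM in experiment 1 and 601, 430, 423 and 423 CPM in experiment 2. The group medians were -2.68 before capture and -2.54, -2.65 and -2.62 in the 3 kinds of pull-down. Leaving out any 1 library kept 21 or 22 of these calls; without either Input library Ermn passed the filter, and it was called in the other direction at 1.596 and 1.598 (edgeR adjusted p 0.0413 and 0.0418).

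Genes of the myelin sheath gave the steepest contrast. Mag (ENSMUSG00000036634, chromosome 7 from 30899176 to 30914873, minus strand of GRCm38), a cell adhesion protein of myelin, was at 18.8, 10.7, 10.2 and 10.5 in experiment 1 and 0.39, 0.174, 0.288 and 0.539 CPM in experiment 2, where it had only 8, 2, 3 and 6 counts. It was 36.6-fold higher in experiment 1 (log2 fold change -5.19, SE 0.25, edgeR adjusted p 4.8e-05). Fa2h, which makes the hydroxylated fatty acids of myelin lipids, was at 9.27, 5.67, 5.07 and 5.84 in experiment 1 and 0.39, 0.174, 0.385 and 0.18 CPM in experiment 2 (log2 fold change -4.49, SE 0.26, edgeR adjusted p 7.65e-05). The sulfotransferase Gal3st1, which makes the myelin lipid sulfatide, was at 28.8, 26.6, 26.2 and 26.3 in experiment 1 and 2.68, 1.65, 1.83 and 1.53 CPM in experiment 2. Mbp, a main structural protein of central myelin, was at 359.8, 252, 257 and 257 in experiment 1 and 56.2, 41.8, 42.8 and 40.2 CPM in experiment 2, so it stayed readily detectable in experiment 2 at a log2 fold change of -2.63 (SE 0.08, edgeR adjusted p 1.04e-05).

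Regulators and stage markers moved with the myelin genes. Gpr17, a receptor found on precursors that are about to differentiate, was at 347, 146, 150.3 and 148 in experiment 1 and 11.7, 9.84, 8.36 and 8.45 CPM in experiment 2, and was 19.5-fold higher in experiment 1 (log2 fold change -4.29, SE 0.18, edgeR adjusted p 3.16e-05). Myrf, the transcription factor that turns on myelin genes, was at 166, 91.1, 119 and 98.2 in experiment 1 and 8.72, 7.14, 7.59 and 7.01 CPM in experiment 2 (log2 fold change -3.94, SE 0.12, edgeR adjusted p 1.04e-05). The precursor markers Pdgfra and Cspg4 had log2 fold changes of -2.64 (SE 0.13, edgeR adjusted p 4.67e-05) and -2.09 (SE 0.18, edgeR adjusted p 0.00035). Sox10, which is needed throughout the lineage, fell from between 145 and 219.8 CPM to between 30.7 and 51.6 CPM. Apart from Nkx6-2 the log2 fold changes ran from -1.39 in Olig2 to -5.19 in Mag. In all 22 genes the 4 libraries of experiment 2 lay below the 4 of experiment 1, against 10.6% of all genes. As the list was drawn up after values had been seen, this contrast is a description only. Nkx6-2, also a progenitor gene, had the smallest change, -0.41 (SE 0.11, edgeR adjusted p 0.0326), and lost its call without a LacZ, ODD or EVEN library.

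**Figure D1:**
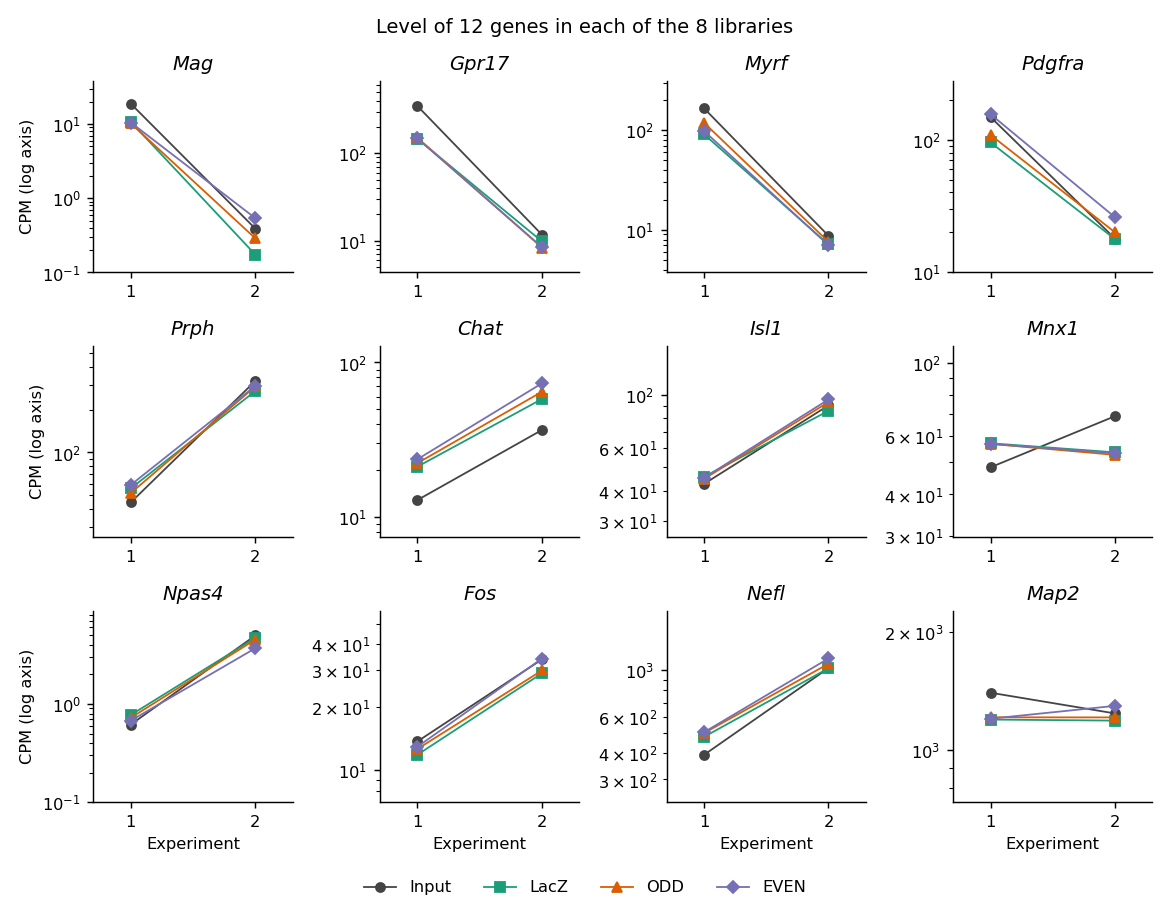
Level in CPM (log axis, own range per panel) of 12 genes in the 8 libraries; each line joins the experiment 1 and experiment 2 library of a group. Mag, Gpr17, Myrf and Pdgfra fall in all 4 groups, Prph, Chat, Isl1, Npas4, Fos and Nefl rise in all 4, and Mnx1 and Map2 do not pass the test.

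Among the genes chosen by size alone, the 10 protein-coding genes with the largest fall at a mean of at least 5 CPM held 5 genes of that list (Mag, Gpr17, Bcas1, Myrf and Gal3st1). The other 5 were S100b, Plxnb3, Bcan, Cdk18 and Tmem88b. The oligodendrocyte list was drawn up after values had been seen, so the overlap is a description only. S100b, a calcium-binding protein of glia, was at 11.3, 9.54, 9.17 and 9.05 in experiment 1 and 0.195, 0.261, 0.288 and 0.359 CPM in experiment 2 (log2 fold change -5.19, SE 0.24, edgeR adjusted p 4.6e-05), with 4, 3, 3 and 4 counts in the libraries of experiment 2. Bcan, the matrix proteoglycan brevican, was at 118, 75.3, 95.3 and 87.3 in experiment 1 and 7.21, 7.05, 7.11 and 6.56 CPM in experiment 2, 13.4-fold higher in experiment 1. Plxnb3, a semaphorin receptor, and the kinase Cdk18 were 19.1-fold and 13.3-fold higher in experiment 1, and Tmem88b was 12.7-fold higher. Outside the protein-coding class the 3 genes that fell most were Zfp469 at -2.16 (edgeR adjusted p 0.000245), 2810468N07Rik at -2.14 (edgeR adjusted p 0.000176) and Gm37731 at -1.72 (edgeR adjusted p 0.00175).

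Astrocyte genes differed less. Of 10 astrocyte genes, a list drawn up after values had been seen, 7 could be tested. Among these 4 were called higher in experiment 1, against 11.8% of all genes, with a median of -0.82. The membrane protein Mlc1 was at 33.3, 19.2, 19.4 and 21.1 in experiment 1 and 7.31, 4.87, 4.42 and 6.02 CPM in experiment 2 (log2 fold change -2.03, SE 0.12, edgeR adjusted p 7.81e-05), and the bicarbonate transporter Slc4a4 and the glutamate transporter Slc1a3 had -1.15 (edgeR adjusted p 0.00153) and -0.82 (edgeR adjusted p 0.00611). The gap junction gene Gja1 was at 56.9, 23.7, 84.6 and 82.2 in experiment 1 and 28.7, 16.3, 18.6 and 18.7 CPM in experiment 2, so its contrast was larger with the Lhx1os probes than in Input. Slc1a2, Aldh1l1 and Fgfr3 were not called, at -0.20, -0.18 and -0.16. Gfap and Aqp4, which mark mature astrocytes, were too low to test; without either Input library Gfap passed the filter and was called higher in experiment 2, at 2.24 and 2.25 (edgeR adjusted p 0.0472 and 0.0475). On a general glial list, which overlaps with both of these, 9 of 11 tested genes were called higher in experiment 1, against 11.8% of all genes. None was called higher in experiment 2, and the median was -2.09. Schwann cell genes, listed after values had been seen, gave 1 call in each direction among 5 tested. Of all genes 14.8% were called higher and 11.8% lower in experiment 2. The receptor Erbb3 fell at -1.46 (SE 0.17, edgeR adjusted p 0.00128), and Prx, a protein of peripheral myelin, rose at 0.53 (edgeR adjusted p 0.0229). Prx lost its call without a LacZ, ODD or EVEN library.

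Progenitor genes were also lower in experiment 2, but by less, and not all of them. Of 23 genes of neural progenitors 22 were tested. Among them 12 were called higher in experiment 1 and 1 higher in experiment 2, against 11.8% and 14.8% of all genes. The median was -0.39. Olig1, Hes5 and Olig2 changed most, and Olig1, Olig2 and Nkx6-2 also stand in the oligodendrocyte list. Olig1 was at 415, 339.7, 375 and 358 in experiment 1 and 95.5, 59.3, 62.7 and 64.1 CPM in experiment 2 (log2 fold change -2.42, SE 0.11, edgeR adjusted p 4.06e-05). Olig2 was at 371, 239, 252 and 236 in experiment 1 and 136, 94.9, 90.8 and 94.999 CPM in experiment 2 (log2 fold change -1.39, SE 0.08, edgeR adjusted p 7.81e-05). Members of the Notch pathway, which keeps progenitors undifferentiated, were called in the same direction. The Notch effector Hes5 was at 62.01, 90.5, 104 and 92.7 in experiment 1 and 27.6, 22.6, 25.2 and 21.6 CPM in experiment 2 (log2 fold change -1.82, SE 0.17, edgeR adjusted p 0.000428). The related Hes1 had -0.38 (edgeR adjusted p 0.0265), the ligand Dll1 had -0.91 (edgeR adjusted p 0.00104) and the receptor Notch1 had -0.70 (edgeR adjusted p 0.00734). Pax6 had -0.98 (edgeR adjusted p 0.00206), Sox2 -0.79 (edgeR adjusted p 0.000711) and Sox3 -0.79 (edgeR adjusted p 0.000522). The most abundant members, the intermediate filaments Nes and Vim, were not called, at -0.01 and -0.07. The member that rose was Id3, an inhibitor of differentiation factors that responds to BMP, at 30.4, 28.2, 29.8 and 29.02 in experiment 1 and 77.5, 50.7, 58.9 and 55.5 CPM in experiment 2 (log2 fold change 1.03, SE 0.11, edgeR adjusted p 0.000711). The Input median of the list was -0.13, nearer to 0 than the medians of -0.52, -0.48 and -0.39 in the LacZ, ODD and EVEN groups. Without any 1 library 8 to 15 members were called higher in experiment 1, and members such as Hes1, Fabp7 and Nkx6-2 lost their calls without a LacZ, ODD or EVEN library.

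Sonic hedgehog response genes split. Of 10 tested, 4 were called higher in experiment 1 and 2 higher in experiment 2, against 11.8% and 14.8% of all genes. Nkx2-2, a factor of the ventral-most progenitors, was at 94.1, 63.4, 68.8 and 70.1 in experiment 1 and 40.4, 19.2, 17.3 and 17.98 CPM in experiment 2 (log2 fold change -1.71, SE 0.14, edgeR adjusted p 0.000298). The receptor Ptch1 was at 762, 605, 632 and 634 in experiment 1 and 317, 348, 334 and 336 CPM in experiment 2 (log2 fold change -0.98, SE 0.11, edgeR adjusted p 0.000885). The co-receptor Gas1 and the transducer Smo had -0.77 and -0.67. Shh itself and Foxa2, which mark the floor plate, were higher in experiment 2, at 0.54 (SE 0.08, edgeR adjusted p 0.00327) and 0.81 (SE 0.10, edgeR adjusted p 0.00124). Gli1, a direct target of the pathway, was not called at -0.28.

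Motor neuron genes were higher in experiment 2. Of 18 genes of motor neuron identity, all tested, 12 were called higher in experiment 2, against 14.8% of all genes, and none higher in experiment 1; the median log2 fold change was 0.67. The summed level of the list, most of it from the neurofilament genes Nefl and Nefm, was 1289.5, 1758, 2658 and 1999.8 CPM in experiment 1 and 3239, 3006, 3069.7 and 3217 CPM in experiment 2. Leaving out any 1 library kept 10 to 12 of the calls. Without either Input library Lmo4 was called in the other direction, at -0.402 and -0.401. The list's medians by group were 0.83, 0.83, 0.62 and 0.54.

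The cholinergic genes, which make and handle the motor neuron's transmitter, rose together. The choline transporter Slc5a7 was at 15.9, 14.8, 12.6 and 14.9 in experiment 1 and 50.2, 47.8, 49.99 and 51.2 CPM in experiment 2, a rise of 3.43-fold (log2 fold change 1.78, SE 0.10, edgeR adjusted p 7.33e-05). Chat, the enzyme that makes acetylcholine, was at 12.9, 21.1, 22.3 and 23.6 in experiment 1 and 36.5, 57.97, 64.6 and 73.2 CPM in experiment 2 (log2 fold change 1.53, SE 0.08, edgeR adjusted p 7.33e-05), and no library of experiment 2 overlapped with experiment 1. Slc18a3, which loads it into vesicles, had 0.67 (SE 0.09, edgeR adjusted p 0.0023). Axonal filament genes rose as well. Prph (ENSMUSG00000023484, chromosome 15 from 99055174 to 99058978, plus strand of GRCm38), the peripheral-type filament peripherin, was at 44.5, 55.8, 51.7 and 59.1 in experiment 1 and 319, 271, 292 and 295 CPM in experiment 2, 5.61-fold higher in experiment 2 (log2 fold change 2.49, SE 0.12, edgeR adjusted p 4.6e-05). Nefl and Nefh had 1.19 (SE 0.10, edgeR adjusted p 0.000286) and 1.44 (SE 0.20, edgeR adjusted p 0.00232). Nefm was at 284, 649, 1588 and 896 in experiment 1 and 1031, 819, 879.9 and 1114 CPM in experiment 2 and was not called: 3 of the 4 groups rose, and ODD replicate 1 was above every other library.

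Among the transcription factors, Isl1, Isl2, Onecut1, Onecut2 and Lhx4 were called and Mnx1, Lhx3, Ebf1, Ebf2 and Lmo4 were not. Isl1 was at 42.6, 45.6, 44.7 and 45.2 in experiment 1 and 90.3, 85.7, 93.2 and 95.5 CPM in experiment 2 (log2 fold change 1.03, SE 0.08, edgeR adjusted p 0.000213). Isl2 was lower, at 0.989, 1.29, 2.09 and 1.0999 in experiment 1 and 3.36, 3.66, 2.79 and 3.15 CPM in experiment 2 (log2 fold change 1.29, SE 0.27, edgeR adjusted p 0.0124), and Onecut1, Onecut2 and Lhx4 had 0.67, 0.68 and 0.34. Mnx1, whose promoter drives the reporter, was at 48.3, 57.1, 56.9 and 56.9 in experiment 1 and 68.97, 53.6, 52.7 and 53.3 CPM in experiment 2 and was not called (log2 fold change 0.06, SE 0.12, edgeR adjusted p 0.749). Mnx1 rose in Input and was slightly lower in each pull-down. Its partner in specification, Lhx3, had 0.22. Ret, the receptor for the GDNF in the medium, had 0.67 (SE 0.09, edgeR adjusted p 0.00258). Isl2 lost its call without a LacZ or EVEN library, and Lhx4 without a LacZ, ODD or EVEN library.

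A small group of genes used by visceral and branchial motor neurons, listed after values had been seen, was mixed. Tbx20 was at 1.15, 1.16, 1.29 and 1.02 in experiment 1 and 3.95, 4.09, 2.69 and 3.33 CPM in experiment 2 (log2 fold change 1.597, SE 0.22, edgeR adjusted p 0.00218). It was low in every library. Of the other genes described here Tbx3 was called higher in experiment 2 and Nkx2-2 lower, and Tbx2 was not called; Phox2a and Hoxb1 were too low to test.

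Genes of neuronal maturation and synapses were also higher in experiment 2. Of 26 tested, 16 were called higher and 1 lower, against 14.8% and 11.8% of all genes, with a median of 0.54. The sodium channel genes Scn3a and Scn2a had 1.07 (SE 0.14, edgeR adjusted p 0.00203) and 0.86 (SE 0.17, edgeR adjusted p 0.00984). The kinase subunit Camk2b was at 65.4, 56.1, 57.6 and 62.7 in experiment 1 and 128, 123, 114 and 119.5 CPM in experiment 2 (log2 fold change 1.003, SE 0.08, edgeR adjusted p 0.000237). Its sister gene Camk2a went the other way, at 60.9, 54.9, 56.6 and 58.9 in experiment 1 and 25.1, 23.2, 20.8 and 21.2 CPM in experiment 2 (log2 fold change -1.36, SE 0.09, edgeR adjusted p 0.000109), and was the 1 member lower in experiment 2. The pan-neuronal Tubb3, Mapt and Snap25 had 0.59, 0.76 and 0.76, all called. Map2, a general marker of neuronal dendrites, was at 1399, 1196, 1211 and 1202 in experiment 1 and 1239, 1188, 1211 and 1295 CPM in experiment 2, with overlapping experiments and a log2 fold change of -0.02. Thy1 was at 0.659, 0.129, 0.322 and 0.592 in experiment 1 and 1.75, 0.957, 0.481 and 1.89 CPM in experiment 2 (log2 fold change 1.49, SE 0.33, edgeR adjusted p 0.0159), and lost its call without a LacZ or EVEN library. The count of 16 fell to 8 without either EVEN library, 10 without either LacZ library and 9 without either ODD library.

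Interneuron genes did not share a direction. Of 16 tested, 7 were called higher in experiment 2 and 3 higher in experiment 1, against 14.8% and 11.8% of all genes, with a median of 0.22. Those higher in experiment 2 included En1 of V1 interneurons at 1.06 (SE 0.16, edgeR adjusted p 0.00308), Pax2 at 0.83 (SE 0.19, edgeR adjusted p 0.0173), Gata2 and Gata3 of V2b interneurons at 0.46 and 0.39, and Gad1 and Gad2, which make GABA, at 0.82 and 0.48. Sim1 of V3 interneurons, the glutamate transporter Slc17a6 and the glycine transporter Slc6a5 were higher in experiment 1, at -0.97 (SE 0.18, edgeR adjusted p 0.00784), -0.81 (SE 0.21, edgeR adjusted p 0.0257) and -0.57 (SE 0.17, edgeR adjusted p 0.0424). Lhx1, the gene beside Lhx1os, was at 29.95, 24.2, 22.8 and 24.4 in experiment 1 and 30.9, 24.5, 25.9 and 25.6 CPM in experiment 2 and was not called (log2 fold change 0.08, SE 0.09, edgeR adjusted p 0.539). En1, Lmx1b and Sim1 kept their calls without any 1 library. The other 7 lost theirs without a library of 1 or more groups, and 2 to 7 members were then called higher in experiment 2 and 1 or 2 higher in experiment 1.

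Some immediate early genes were higher in experiment 2. Of 27 genes 24 were tested; 11 were called higher in experiment 2, against 14.8% of all genes, and 3 higher in experiment 1, a share near the 11.8% of all genes. The median of the list was 0.63. Npas4 (ENSMUSG00000045903, chromosome 19 from 4984355 to 4990316, minus strand of GRCm38), a factor induced by calcium entry in neurons, was at 0.618, 0.773, 0.724 and 0.677 in experiment 1 and 4.97, 4.7000, 4.52 and 3.68 CPM in experiment 2, 6.52-fold higher in experiment 2 (log2 fold change 2.70, SE 0.21, edgeR adjusted p 0.000239). Fos, the standard marker of recent activity, was at 13.7, 11.9, 12.6 and 12.9 in experiment 1 and 33.8, 28.98, 29.9 and 34.1 CPM in experiment 2 (log2 fold change 1.31, SE 0.09, edgeR adjusted p 0.00016). Of the other genes of the AP-1 and ATF families tested, Junb, Fosl2 and Atf3 were called and Fosb, Jun and Jund were not. Junb was at 2.47, 2.45, 2.74 and 4.31 in experiment 1 and 11.1, 9.49, 10.2 and 10.2 CPM in experiment 2 (log2 fold change 1.81, SE 0.19, edgeR adjusted p 0.000726). Fosl2 had 1.65 (SE 0.11, edgeR adjusted p 0.000126) and Atf3 had 1.76 (SE 0.20, edgeR adjusted p 0.00113), while Fosb had 0.96 (edgeR adjusted p 0.135) and Jund -0.26 (edgeR adjusted p 0.213). Egr3 had 1.88 (SE 0.29, edgeR adjusted p 0.00347), Nr4a2 1.31 (SE 0.16, edgeR adjusted p 0.00152), and Ier3 1.35 (SE 0.23, edgeR adjusted p 0.00563). Dusp6, a phosphatase that limits ERK signalling, was at 78.2, 63.8, 55.03 and 53.05 in experiment 1 and 147, 119.8, 122 and 122 CPM in experiment 2 (log2 fold change 1.04, SE 0.09, edgeR adjusted p 0.000326).

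The list did not move as a block. Arc, Egr1, Nr4a1, Ier2 and Bdnf were not called, at 0.26, 0.32, 0.08, 0.08 and -0.07. Jun was at 122, 258, 112 and 116 in experiment 1 and 244, 217, 205 and 237 CPM in experiment 2, so LacZ replicate 1 alone was above its experiment 2 partner, and it was not called (log2 fold change 0.67, SE 0.21, edgeR adjusted p 0.052). Btg2, which is also a p53 target, was lower in experiment 2: it was at 275, 207, 218 and 210.4 in experiment 1 and 154, 119, 118 and 132 CPM in experiment 2 (log2 fold change -0.80, SE 0.08, edgeR adjusted p 0.000662). Nr4a3 and Ier5 had -0.48 (SE 0.07, edgeR adjusted p 0.00375) and -0.46 (SE 0.12, edgeR adjusted p 0.0271). Without any 1 library, 10 to 13 members were called higher in experiment 2 and 2 to 4 higher in experiment 1; Dusp1 lost its call without an ODD library and Ier5 without a LacZ or ODD library.

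Several of these genes carry in their promoter the core of the cAMP response element, the site of the calcium- and cAMP-dependent factor CREB. Promoters here are the 250 bases before and 50 after the start in RefSeq on GRCm38.p6, and the 4 shown belong to called genes that rose and hold TGACGT on either strand; capitals mark each match, and overlapping matches on both strands run together.
Npas4 (chr19:4989922-4990221, minus strand): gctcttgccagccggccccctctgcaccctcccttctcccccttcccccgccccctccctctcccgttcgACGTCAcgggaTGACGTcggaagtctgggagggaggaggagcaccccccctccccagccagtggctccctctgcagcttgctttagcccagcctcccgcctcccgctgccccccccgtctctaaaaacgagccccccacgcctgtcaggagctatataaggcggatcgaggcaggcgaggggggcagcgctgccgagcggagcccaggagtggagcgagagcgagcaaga
Fos (chr12:85473640-85473939, plus strand): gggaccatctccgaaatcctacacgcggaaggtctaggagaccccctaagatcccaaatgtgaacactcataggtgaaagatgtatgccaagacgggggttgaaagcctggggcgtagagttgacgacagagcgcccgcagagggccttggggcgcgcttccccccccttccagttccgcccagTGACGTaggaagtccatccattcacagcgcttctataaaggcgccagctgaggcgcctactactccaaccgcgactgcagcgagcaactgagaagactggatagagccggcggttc
Atf3 (chr1:191183284-191183583, minus strand): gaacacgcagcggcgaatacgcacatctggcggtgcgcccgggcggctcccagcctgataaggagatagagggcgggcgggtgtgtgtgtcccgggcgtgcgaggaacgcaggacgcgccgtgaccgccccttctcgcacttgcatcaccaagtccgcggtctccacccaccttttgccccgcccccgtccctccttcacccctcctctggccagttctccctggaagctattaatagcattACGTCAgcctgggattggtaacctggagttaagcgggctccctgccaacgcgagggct
Dusp1 (chr17:26508423-26508722, minus strand): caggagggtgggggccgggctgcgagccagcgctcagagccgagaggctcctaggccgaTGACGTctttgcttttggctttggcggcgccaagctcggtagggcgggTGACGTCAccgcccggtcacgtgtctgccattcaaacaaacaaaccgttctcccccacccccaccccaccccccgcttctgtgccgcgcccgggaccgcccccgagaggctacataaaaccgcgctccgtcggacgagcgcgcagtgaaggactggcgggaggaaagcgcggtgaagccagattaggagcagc
The letters were found in 12 of the 22 immediate early genes with a promoter in the table, in 5 of the 10 that were higher in experiment 2, in 1456 of 11045 tested genes with a promoter (13.2%) and in 2468 of all 32851 promoters (7.51%). Btg2 and Nr4a3, which were lower in experiment 2, also hold them, and Junb, Fosl2 and Dusp6, which were higher, do not in this window. Maff is the other gene that rose with a match, in 1 of its 3 promoters. A match is a run of letters and shows no binding.

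Most markers of other cell types were low in both experiments, and some were higher in experiment 2. Of 14 genes of endoderm and epithelium 6 could be tested, and all 6 were called higher in experiment 2, against 14.8% of all genes. Their median was 1.69. Sox17, Afp, Apoa1, Ttr, Epcam, Gata4, Krt8 and Krt18 were too low to test. Low genes such as Krt19 and Gata6 may have passed the filter through the libraries of experiment 2, so the count is a description only. Krt19, a keratin, was at 0.33, 0.129, 0.161 and 0.592 in experiment 1 and 2.53, 1.39, 1.92 and 1.62 CPM in experiment 2 (log2 fold change 2.63, SE 0.38, edgeR adjusted p 0.0029). Gata6, a regulator of endoderm, was at 0.0824, 0.387, 0.0804 and 0.677 in experiment 1 and 1.75, 0.957, 1.35 and 1.35 CPM in experiment 2 (log2 fold change 2.44, SE 0.58, edgeR adjusted p 0.0198). Cdh1, the epithelial cadherin, was at 10.7, 4.25, 3.94 and 5.499 in experiment 1 and 29.4, 15.8, 18.6 and 20.04 CPM in experiment 2 (log2 fold change 1.82, SE 0.15, edgeR adjusted p 0.000284). Foxa1 and Foxa2, made by endoderm and also by the floor plate, had 1.55 (SE 0.09, edgeR adjusted p 8.15e-05) and 0.81 (SE 0.10, edgeR adjusted p 0.00124). Gata6 lost its call without an ODD library, and with a filter of 50 counts in 2 libraries 4 of these genes were left, all called.

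Of 17 pluripotency genes 6 were tested and 3 called, all higher in experiment 2, against 14.8% of all genes. Low genes of this list may have passed the filter through the libraries of experiment 2, so the count is a description only. With a filter of 50 counts in 2 libraries 2 genes were left, both called. Esrrb was at 4.78, 5.16, 3.86 and 2.37 in experiment 1 and 12.4, 11.2, 7.69 and 10.7 CPM in experiment 2 (log2 fold change 1.40, SE 0.20, edgeR adjusted p 0.00276). Klf4 was called at 0.99 (SE 0.17, edgeR adjusted p 0.00623) and Sall4 at 0.87 (SE 0.26, edgeR adjusted p 0.0423). Pou5f1 and Nanog, the defining factors of the stem cells, were too low to test; Pou5f1 had no count in any of the 8 libraries. Sall4 lost its call without a library of any group. Neural crest and sensory genes gave 3 calls higher and 2 lower among 7 tested, against 14.8% and 11.8% of all genes. Isl1 and Sox10 among these stand in other lists. Mesenchymal genes gave 4 higher and 3 lower among 19, shares near the 14.8% and 11.8% of all genes. Fn1, the matrix protein fibronectin, was at 166, 79.8, 81.1 and 82.999 in experiment 1 and 274, 217, 239.7 and 325 CPM in experiment 2 (log2 fold change 1.42, SE 0.19, edgeR adjusted p 0.00189). Lum, a matrix proteoglycan, was the steepest in the other direction at -1.68 (SE 0.27, edgeR adjusted p 0.00458). Col1a1 and Col3a1 were not called, at -0.11 and -0.04. Without either Input library 8 of them were called higher. Of 17 endothelial and blood genes 2 could be tested, Kdr and Egfl7, and neither was called (-0.40 and -0.52). Of the 4 Y-linked genes tested Eif2s3y and Kdm5d were called higher in experiment 2, at 0.83 (edgeR adjusted p 0.00381) and 0.51 (edgeR adjusted p 0.0129), and Ddx3y and Uty were not called; Xist was too low to test.

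**Figure D2:**
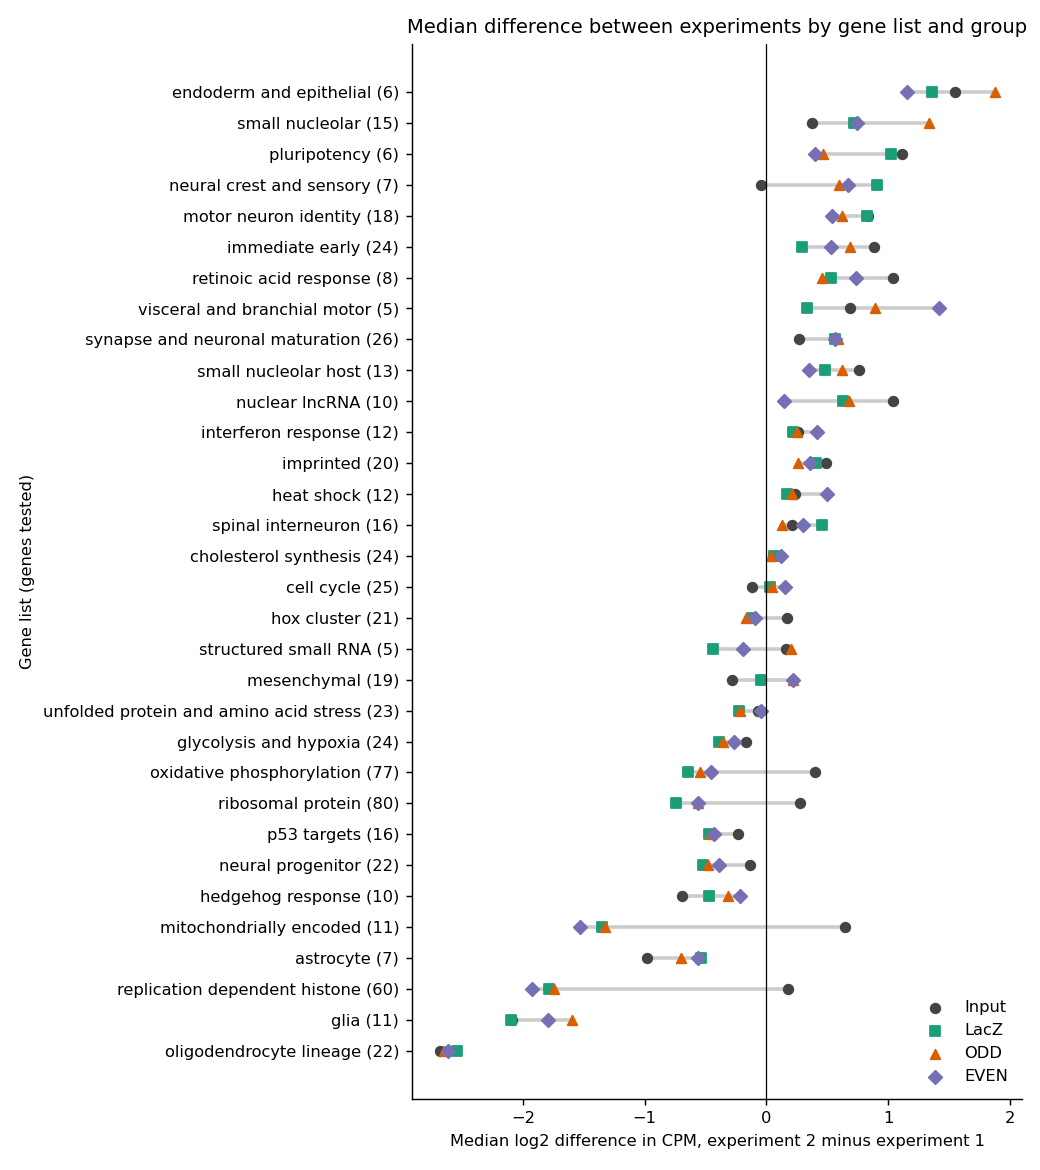
Median log2 difference in CPM, experiment 2 minus experiment 1, of the tested genes of each list (number in brackets), with 1 symbol per group. The oligodendrocyte list lies between -2.68 and -2.54 in all 4 groups, and the histone, mitochondrially encoded, ribosomal protein and oxidative phosphorylation lists have Input to the right of 0 and the 3 pull-downs to the left.

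Hox genes, which give a spinal neuron its position along the body, differed in both directions. Of 39 Hox genes 21 were tested; 4 were called higher in experiment 2 and 6 higher in experiment 1, against 14.8% and 11.8% of all genes. The higher ones included Hoxd3, which was at 8.199, 10.7, 11.6 and 9.73 in experiment 1 and 15.8, 16.6, 17.4 and 16.1 CPM in experiment 2 (log2 fold change 0.73, SE 0.11, edgeR adjusted p 0.00379), and 2 genes with paralog number 4, Hoxa4 at 0.48 (edgeR adjusted p 0.0421) and Hoxb4 at 0.35 (edgeR adjusted p 0.0264). The 6 lower ones have numbers from 6 to 9. Hoxa7 was at 2.14, 1.55, 1.53 and 1.44 in experiment 1 and 0.633, 0.348, 0.385 and 0.629 CPM in experiment 2 (log2 fold change -1.72, SE 0.28, edgeR adjusted p 0.00449). The other 5 were Hoxa6 at -1.25 (SE 0.29, edgeR adjusted p 0.0187), Hoxb9 at -0.68 (edgeR adjusted p 0.0349), Hoxb7 at -0.61 (edgeR adjusted p 0.046), Hoxb6 at -0.48 (edgeR adjusted p 0.00861) and Hoxb8 at -0.41 (edgeR adjusted p 0.0342). Hoxb8 hardly differed in Input, at 155 and 153 CPM, against 126 and 79.3 CPM in LacZ. Genes numbered 5, such as Hoxa5, Hoxb5 and Hoxc5, were not called, and those of the caudal end from 10 onward were too low to test. Hoxd3 and Hoxa7 kept their calls without any 1 library. The others did not: without any 1 library 1 to 4 were called higher and 2 to 6 lower, with 1 and 2 left without either EVEN library, and 2 and 2 without either LacZ or either ODD library. With a filter of 50 counts in 2 libraries 5 were higher and 3 lower, and with each library's GC trend removed 5 and 4.

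**Figure D3:**
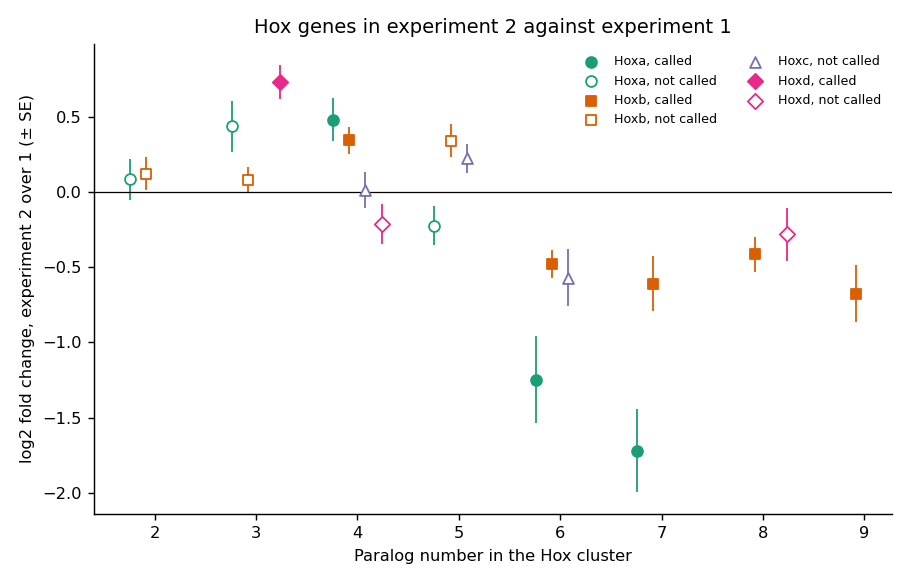
Log2 fold change, experiment 2 over experiment 1, of 20 of the 21 tested Hox genes against paralog number (symbols are offset sideways by cluster), with standard errors as bars. Filled symbols passed the test; those above 0 have numbers 3 and 4 and those below 0 numbers 6 to 9.

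Retinoic acid, which patterns the rostral Hox genes, has its own response genes. Of 8 tested, 5 were called higher in experiment 2 and none higher in experiment 1, against 14.8% and 11.8% of all genes. Crabp2, which carries retinoic acid to its receptor, was at 3.63, 10.2, 10.3 and 9.56 in experiment 1 and 24.2, 19.8, 18.8 and 24.2 CPM in experiment 2 (log2 fold change 1.48, SE 0.30, edgeR adjusted p 0.0106), with a wider contrast in Input than in the pull-downs. Dhrs3, a feedback enzyme of retinoid metabolism, was at 8.45, 7.09, 6.44 and 5.84 in experiment 1 and 24.3, 15.6, 18.1 and 18.6 CPM in experiment 2 (log2 fold change 1.46, SE 0.12, edgeR adjusted p 0.000334). The receptor Rarb had 0.66 (SE 0.09, edgeR adjusted p 0.00177). Crabp1 and Cyp26b1 were not called, at -0.82 and -0.36, and without either Input library both were called higher in experiment 1. In 4 of the 8 genes, among them Crabp1, Crabp2 and Cyp26b1, the difference was lower in the pull-downs than in Input. The test of the interaction gave this for 3.71% of all genes. Without either EVEN library 3 genes were called higher in experiment 2.

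Stress and metabolic genes differed in part. Of 16 p53 target genes 8 were called higher in experiment 1 and 1 higher in experiment 2, against 11.8% and 14.8% of all genes. The median was -0.39. The receptor Eda2r was at 115, 71.8, 81.8 and 72.7 in experiment 1 and 57.2, 39.5, 38.3 and 37.2 CPM in experiment 2 (log2 fold change -0.98, SE 0.08, edgeR adjusted p 0.000286). Ei24, Trp53inp1 and Ccng1 had -0.75, -0.74 and -0.71. Cdkn1a, which arrests the cell cycle, had -0.45 (edgeR adjusted p 0.0144), while Mdm2 and Bax were not called, at -0.07 and -0.17. Plk2 was the member higher in experiment 2, at 0.74 (edgeR adjusted p 0.00152). Without either ODD library 5 members were called higher in experiment 1, and without either Input library 10 were.

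Of 12 heat shock genes 4 were called, all higher in experiment 2, against 14.8% of all genes. Hspb1, a small chaperone, was at 0.865, 0.645, 0.644 and 0.761 in experiment 1 and 5.84, 2.18, 2.69 and 2.61 CPM in experiment 2 (log2 fold change 2.23, SE 0.26, edgeR adjusted p 0.00122). Hsp90aa1, a main cytosolic chaperone, was at 507, 618, 576 and 599 in experiment 1 and 615, 1211, 1351 and 1543 CPM in experiment 2 (log2 fold change 0.96, SE 0.18, edgeR adjusted p 0.00801). Dnajb1 and Hspa1b, which heat induces strongly, were not called, at 0.001 and -0.29. Without either ODD or either EVEN library 2 heat shock genes were called, and without either Input library 6.

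Genes of the unfolded protein and amino acid responses gave 3 calls higher in experiment 2 and 8 higher in experiment 1 among 23, with a median of -0.08; of all genes 14.8% and 11.8% were called, so the share higher in experiment 2 was near that of all genes. The cystine transporter Slc7a11 rose, at 1.12 (edgeR adjusted p 0.0042), and the chaperone Pdia4 fell, at -0.997 (edgeR adjusted p 0.0238); without any 1 library 1 to 3 were called higher and 2 to 8 lower, with 2 lower without either LacZ library. Glycolysis and hypoxia genes gave 5 and 8 calls among 24, against 14.8% and 11.8% of all genes, with a median of -0.29. The brain aldolase Aldoc was at 84.7, 64.8, 62.1 and 66.7 in experiment 1 and 32.8, 21.7, 21.3 and 22.1 CPM in experiment 2 (log2 fold change -1.52, SE 0.09, edgeR adjusted p 7.33e-05). The phosphofructokinase Pfkp rose, at 1.61 (SE 0.09, edgeR adjusted p 7.33e-05). Without either Input library 15 genes of that list were called higher in experiment 1. Among 12 interferon response genes 5 were called higher in experiment 2, against 14.8% of all genes, and 3 were with RLE size factors. The largest changes were in Usp18 at 2.13 (SE 0.25, edgeR adjusted p 0.00123) and Oasl2 at 1.86 (SE 0.36, edgeR adjusted p 0.00898). Mx2 was higher in experiment 1 at -1.61 (SE 0.26, edgeR adjusted p 0.00463). Cell cycle genes gave 3 and 1 calls among 25 and cholesterol synthesis genes 2 and 2 among 24, shares below those of all genes; their medians were 0.05 and 0.08. Without either LacZ or either ODD library none of those 8 calls was left, and without either Input library cell cycle genes gave 9 and 6. Interferon genes gave 2 calls higher in experiment 2 without either ODD library.

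Imprinted genes gave 8 calls among 20, all higher in experiment 2, against 14.8% of all genes. Of these 8 genes, 4 lie in the domain between Dlk1 and Dio3 on chromosome 12. The maternally expressed noncoding RNAs of that domain were higher in every group. Meg3 was at 741, 1955, 1825 and 2420.01 in experiment 1 and 1674, 3485, 3354 and 2656 CPM in experiment 2 (log2 fold change 0.76, SE 0.17, edgeR adjusted p 0.018). Rian was at 585, 1056, 975 and 1002 in experiment 1 and 1410.5, 1944, 2025 and 1807 CPM in experiment 2 (log2 fold change 1.01, SE 0.11, edgeR adjusted p 0.000986). Mirg was at 9.43, 63.6, 54.6 and 65.5 in experiment 1 and 47.1, 119, 121 and 97.8 CPM in experiment 2 (log2 fold change 1.21, SE 0.25, edgeR adjusted p 0.0126). The paternally expressed Rtl1 had 1.002 (SE 0.18, edgeR adjusted p 0.00651). Dlk1 itself was at 35.6, 27.1, 24.9 and 27.1 in experiment 1 and 37.4, 23.6, 23.9 and 18.9 CPM in experiment 2 and was not called (log2 fold change -0.17, SE 0.12, edgeR adjusted p 0.321). Igf2, a growth factor of the fetus, was at 16.8, 2.19, 3.62 and 3.64 in experiment 1 and 40.9, 6.09, 6.34 and 6.11 CPM in experiment 2 (log2 fold change 1.09, SE 0.16, edgeR adjusted p 0.00285). H19 beside it was not called, at 0.35 (edgeR adjusted p 0.0604). Peg10, Magel2 and Zdbf2 had 0.72, 0.75 and 0.40. Without either Input library Mest was called higher in experiment 1, at -0.299 and -0.298. Meg3 lost its call without a LacZ or ODD library and Zdbf2 without LacZ, ODD or EVEN; without any 1 library 6 to 11 members were called higher.

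Hosts of small nucleolar RNAs, which carry these guides of rRNA modification in their introns, gave 9 calls among 13, all higher in experiment 2. For this and the other counts of noncoding RNAs below, the share of all genes called higher in experiment 2 was 14.8%. The host Snhg11, abundant in neurons, was at 101, 245, 232 and 249.6 in experiment 1 and 384, 797, 814 and 708 CPM in experiment 2 (log2 fold change 1.74, SE 0.10, edgeR adjusted p 7.89e-05). Snhg5 had 1.09 (SE 0.08, edgeR adjusted p 0.000204) and Snhg6 1.09 (SE 0.15, edgeR adjusted p 0.00237). Without any 1 library 7 to 9 hosts were called. Of the 31 tested genes annotated as small nucleolar RNA, 15 (48.4%) were called, all higher in experiment 2. Low genes of this class may have passed the filter through the libraries of experiment 2, so the count is a description only. On the list of small nucleolar RNAs chosen by name 4 of 15 tested were called, 1 to 8 without any 1 library and 2 with the length trend removed, so the count depends on the libraries and on the processing. Gm24119, of that class, was at 0.0824, 5.16, 2.49 and 5.41 in experiment 1 and 0.292, 36.4, 49.6 and 29.9 CPM in experiment 2 (log2 fold change 3.12, SE 0.32, edgeR adjusted p 0.000719), so it was near 0 in Input and present in the pull-downs. Snora73a was at 0.742, 3.48, 2.17 and 3.81 in experiment 1 and 1.12, 15.2, 14.7 and 12.2 CPM in experiment 2. Rnu12, the U12 RNA of the minor spliceosome, was at 1.65, 3.35, 1.45 and 2.37 in experiment 1 and 3.17, 21.5, 34.1 and 27.6 CPM in experiment 2 (log2 fold change 2.95, SE 0.49, edgeR adjusted p 0.00478). Of 10 tested nuclear long noncoding RNAs 6 were called higher in experiment 2 and none higher in experiment 1, with a median of 0.52, and 4 to 6 were called without any 1 library. They include Snhg11 and the imprinted Meg3, Rian and Mirg, while Malat1 and Neat1 were not called, at 0.33 and 0.34. Of 368 tested genes of the intergenic long noncoding class 16.8% were higher in experiment 2 and 7.88% higher in experiment 1. The 7SK RNA Rn7sk, a regulator of transcription elongation, went the other way at -1.600 (edgeR adjusted p 0.0295), and lost its call without a LacZ, ODD or EVEN library; Rny1, Rny3, Rmrp and Rpph1 were not called. Reads of a host intron, of related copies and of a small RNA itself may be shared, so values of the small RNAs are uncertain.

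By size alone, at a mean of at least 5 CPM, the 10 protein-coding genes that rose most were Stac, Lix1, Prune2, Fgd5, Nup62cl, Prph, Upp1, Slc43a3, Filip1 and Kcnk9. Stac (ENSMUSG00000032502, chromosome 9 from 111561437 to 111690348, minus strand of GRCm38), an adaptor of voltage-gated calcium channels, was at 1.57, 1.805, 1.69 and 1.78 in experiment 1 and 18.1, 13.6, 11.9 and 13.5 CPM in experiment 2, 8.52-fold higher in experiment 2 (log2 fold change 3.09, SE 0.17, edgeR adjusted p 7.33e-05). Lix1 was at 3.54, 3.61, 2.33 and 3.13 in experiment 1 and 39.7, 21.9, 20.1 and 21.3 CPM in experiment 2 (log2 fold change 3.04, SE 0.17, edgeR adjusted p 7.33e-05). Fgd5, an activator of the GTPase Cdc42, was at 13.4, 11.7, 14.6 and 15.6 in experiment 1 and 102, 88.9, 94.5 and 107 CPM in experiment 2 (log2 fold change 2.83, SE 0.09, edgeR adjusted p 1.04e-05). Prune2 was at 19.7, 26.04, 25.3 and 24.1 in experiment 1 and 103, 195, 201 and 207 CPM in experiment 2 (log2 fold change 2.84, SE 0.13, edgeR adjusted p 4.6e-05). Kcnk9, a potassium leak channel, and Upp1, uridine phosphorylase, were 5.199-fold and 5.601-fold higher. Nup62cl, Slc43a3 and Filip1 rose by 7.03-fold, 5.596-fold and 5.24-fold. In all 10 genes the 4 libraries of experiment 2 lay above the 4 of experiment 1, against 12.7% of all genes. The 10 were chosen as called genes of largest change in these same values, so this contrast follows largely from the choice.

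The difference between experiments was next compared before and after capture, by testing whether it was the same in the 3 pull-downs as in Input. In 212 genes (1.28%) it was higher in the pull-downs and in 613 (3.71%) it was lower. The genes that were lower were mostly short. In the shortest of 5 equal bins of genes by merged exon length, from 102 to 2155 bases, the median difference was 0.28 in Input and -0.19, -0.19 and -0.24 in LacZ, ODD and EVEN, and 384 genes were lower and none higher. In the longest bin, above 7230 bases, it was -0.07 in Input and 0.12, 0.10 and 0.11 in the pull-downs, and 161 genes were higher and 13 lower. Short genes did not all go the same way. The 31 tested genes annotated as small nucleolar RNA had medians of 0.38 in Input and 1.35, 1.65 and 0.86 in LacZ, ODD and EVEN. None of these 31 passed the test in either direction. On the list chosen by name the median interaction was -0.24, and 1 of 15 genes was lower. Over all genes the Input median was 0.08 and the pull-down medians were within 0.01 of 0. With each library's trend on length removed, an alternative added after the data had been seen, 5 genes were higher and 213 lower. The counts also rested on single libraries: without either ODD library 33 or 35 genes were higher and 357 or 384 lower, and without either LacZ library 443 or 525 were higher and 812 or 920 lower. In 5 bins by GC content the group medians lay between -0.07 and 0.10, and the genes lower in the pull-downs numbered 70 in the bin of lowest and 201 in that of highest GC content. On simulated counts the test recovered 81.5% of genes given an interaction of 2 on the log2 scale and none given 1 or 0.5. These were 200 changed genes, fewer than the 212 and 613 genes called here. Of the 184 calls at 2, 21 were false, as were the 1 call at 1 and the 5 calls at 0.5. The simulated libraries held no other difference between the experiments, unlike these data. Interactions of 1 or less named below are of a size at which the simulation recovered no gene.

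**Figure D4:**
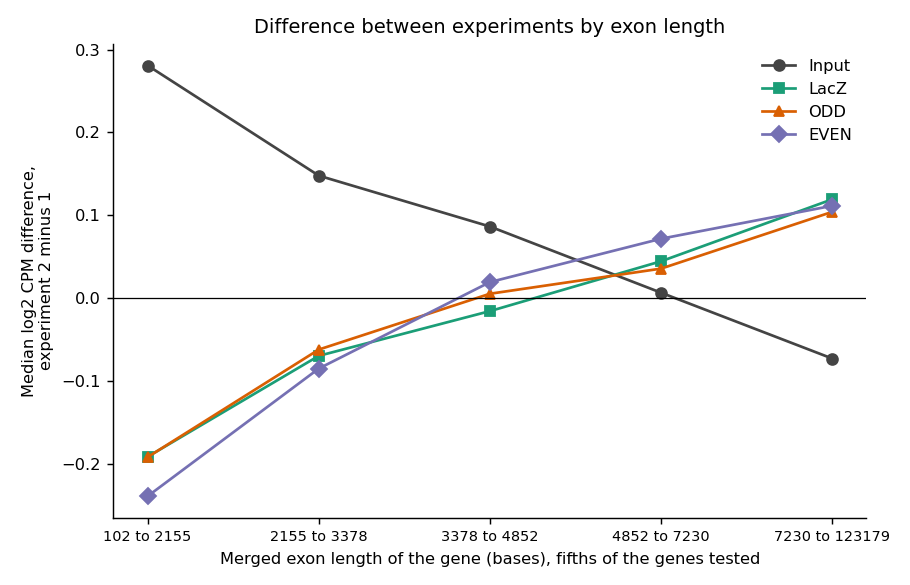
Median log2 difference in CPM, experiment 2 minus experiment 1, in 5 equal bins of the genes tested ordered by merged exon length, 1 line per group. Input falls from 0.28 to -0.07 from short to long genes, and LacZ, ODD and EVEN rise from -0.19, -0.19 and -0.24 to 0.12, 0.10 and 0.11.

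Replication-dependent histone genes, which have short transcripts, had the lowest median of the lists. Of 60 tested, 55 were lower in this comparison, against 3.71% of all genes, with a median of -2.09. Their summed level was 3256 and 3838 CPM in the Input of experiments 1 and 2, but 9370 and 3247 CPM in LacZ, 8759 and 3212 CPM in ODD, and 8799 and 2796 CPM in EVEN. The captured RNA of experiment 1 was thus rich in histone transcripts relative to its Input, and that of experiment 2 was not. Hist1h2ad (ENSMUSG00000071478, chromosome 13 from 23574381 to 23574952, plus strand of GRCm38) was at 13.6, 40.1, 44.01 and 44.1 in experiment 1 and 17.7, 10.7, 6.15 and 7.64 CPM in experiment 2, with an interaction of -2.79 (SE 0.32, edgeR adjusted p 0.00756). Hist1h3d and Hist1h2bp had -2.09 (SE 0.13, edgeR adjusted p 0.00321) and -1.94 (SE 0.21, edgeR adjusted p 0.00665). In the fit over all 4 groups 7 of the 60 were called higher in experiment 1, of which none was left without either LacZ or either EVEN library and 2 without either ODD library. With the 6 pull-down libraries alone 58 were called higher in experiment 1. With the length trend removed 53 were lower in the pull-downs relative to Input, and leaving out any 1 pull-down library left 54 to 56. Histone genes are near-identical copies, so reads may be split among them and single values are uncertain.

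These messages end in a conserved stem-loop in place of a poly(A) tail, which is shown because it is the feature that sets the class apart. The stretches come from GENCODE M21 transcripts, with the stem-loop in capitals. In the Hist1h3d transcript the stem-loop lies at bases 482 to 497 of 1249, so not at the annotated end.
Hist1h2ad: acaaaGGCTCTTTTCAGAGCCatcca
Hist1h3d: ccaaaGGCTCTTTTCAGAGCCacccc
Hist1h2bp: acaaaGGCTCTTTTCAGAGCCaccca
The histone stem-loop was found by its letters in 27 of the 60 tested histone genes and in 1 of the 16464 other genes tested. It was present in 25 of the 55 histone genes that were lower (45.5%), against 45% of the 60. The search pattern allowed few variants of the stem-loop, and no gene named Hist1h4 matched it. A histone gene without a match may therefore carry another form, and these shares do not count genes that lack a stem-loop.

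The ribosomal protein, oxidative phosphorylation and mitochondrially encoded lists, of short and abundant transcripts, went the same way as the histone genes. Of 80 ribosomal protein genes 53 were lower in the pull-downs relative to Input, against 3.71% of all genes. Their medians were 0.28 in Input and -0.74, -0.56 and -0.56 after capture. Rplp0, a protein of the ribosomal stalk, was at 523, 671, 634 and 619 in experiment 1 and 475, 346, 331 and 278 CPM in experiment 2, with an interaction of -0.88 (SE 0.15, edgeR adjusted p 0.0267). Of 77 nuclear genes of oxidative phosphorylation 43 were lower, with medians of 0.40 against -0.64, -0.55 and -0.45. Of 11 mitochondrially encoded genes 8 were lower. The gene mt-Nd1, for a subunit of complex I, was at 418, 388, 306 and 397 in experiment 1 and 826, 150.1, 106 and 135 CPM in experiment 2, so it was higher in the Input of experiment 2 and lower in each of its pull-downs, with an interaction of -2.47 (SE 0.14, edgeR adjusted p 0.00321). The gene mt-Co1 of complex IV was at 2683, 4056, 3421 and 3529 in experiment 1 and 2826, 1570.2, 1564 and 1996 CPM in experiment 2, with -1.18 (SE 0.22, edgeR adjusted p 0.0344). In the fit over all 4 groups the ribosomal protein, oxidative phosphorylation and mitochondrially encoded lists gave 3, 1 and 1 calls higher in experiment 1, and with the pull-downs alone 70, 56 and 10. With the length trend removed, 19 ribosomal protein genes, 20 oxidative phosphorylation genes and 5 mitochondrially encoded genes were lower; without either ODD library 40, 35, and 7 or 8 were. RNA integrity and fragment size were not given in the labels, and their part in the result was not tested.

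Lists of cell identity differed in this comparison. For the oligodendrocyte list the median interaction was 0.11 and 2 of 22 genes were called, among them Gpr17 at 0.83 (SE 0.16, edgeR adjusted p 0.039), with a smaller fall in the pull-downs. For the motor neuron list the median was -0.17 and none of the 18 was called. Astrocyte and mesenchymal genes had positive values: the median was 0.69 in both lists, and 3 of 7 and 4 of 19 genes were higher in the pull-downs, against 1.28% of all genes, with none lower. These were Slc1a2 at 0.81 (SE 0.15, edgeR adjusted p 0.0341), Slc1a3 at 0.75 (SE 0.13, edgeR adjusted p 0.0282) and Fgfr3 at 0.69 (SE 0.13, edgeR adjusted p 0.0358) among the astrocyte genes, and Col1a1 at 0.94 (SE 0.16, edgeR adjusted p 0.0271), Col5a1 at 0.96 (SE 0.13, edgeR adjusted p 0.0136), Fbn1 at 0.80 (SE 0.15, edgeR adjusted p 0.0363) and Col4a2 at 0.86 (SE 0.15, edgeR adjusted p 0.0282) among the mesenchymal ones. In the general glial list 3 of 11 were higher, with a median of 0.61. With the length trend removed no gene of these 3 lists was called, and without either ODD library 0 astrocyte, 1 glial and 2 mesenchymal genes were. Of the genes lower in the pull-downs the largest values were those of mt-Rnr1, a mitochondrial rRNA, at 0.494, 1.55, 0.724 and 1.02 in experiment 1 and 0.877, 0.174, 0.192 and 0.0899 CPM in experiment 2, with an interaction of -3.59 (SE 0.76, edgeR adjusted p 0.048). It had only 2, 2 and 1 counts in LacZ, ODD and EVEN of experiment 2. The libraries were made after rRNA removal, and the part of that step in this value was not tested. Abhd11os was at 0.494, 1.03, 1.29 and 1.52 in experiment 1 and 2.87, 0.783, 0.673 and 1.08 CPM in experiment 2, with -3.12 (SE 0.54, edgeR adjusted p 0.0276). The call of mt-Rnr1 was lost without a LacZ, ODD or EVEN library and that of Abhd11os without an ODD library. Of the genes higher in the pull-downs the largest value was that of Plcg2, a phospholipase, which was at 25.3, 15.99, 15.6 and 16.8 in experiment 1 and 1.02, 1.57, 2.12 and 2.43 CPM in experiment 2, so it was lower in experiment 2 throughout and most of all in Input, with an interaction of 1.63 (SE 0.34, edgeR adjusted p 0.0476). Col2a1, a collagen of cartilage and notochord, was at 45.3, 22.04, 23.97 and 27.3 in experiment 1 and 15.1, 16.3, 17.3 and 26.4 CPM in experiment 2, with 1.28 (SE 0.21, edgeR adjusted p 0.0241).

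**Figure D5:**
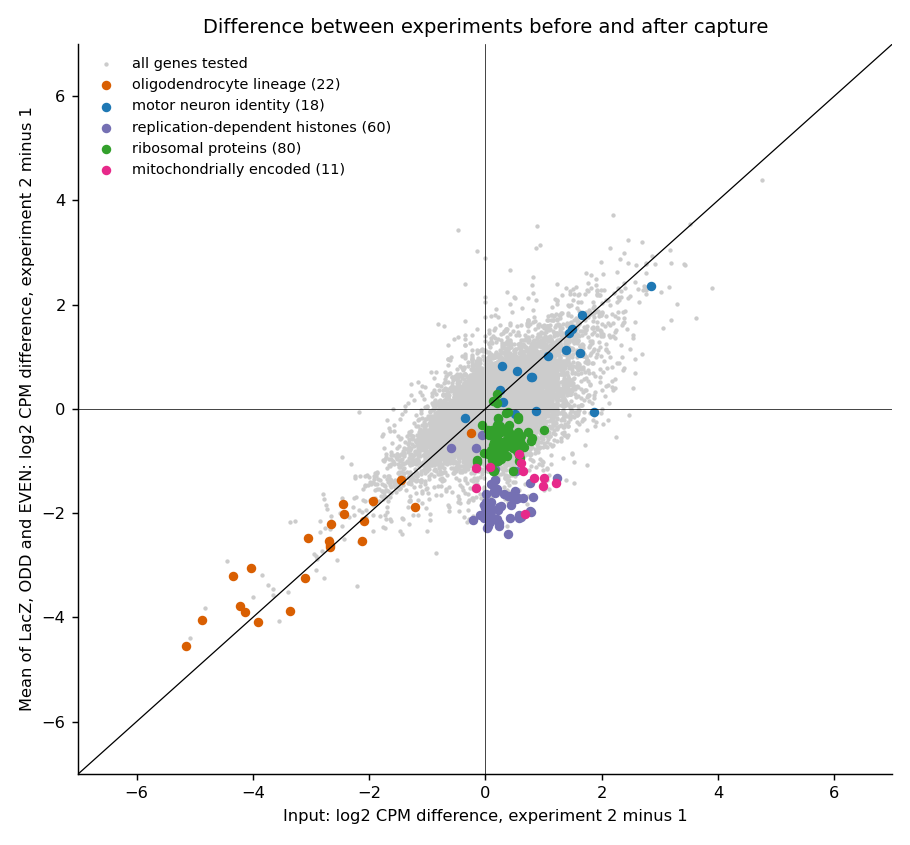
Log2 CPM difference, experiment 2 minus experiment 1, in Input (horizontal axis) and as the mean of the LacZ, ODD and EVEN pull-downs (vertical axis), 1 point per gene tested; the diagonal marks equal differences. Oligodendrocyte and motor neuron genes scatter about the diagonal, and most histone, ribosomal protein and mitochondrially encoded genes lie below it.

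Finally, the experiments were compared in what the Lhx1os probes recovered, by testing whether the difference with these probes was the same as with the control probes and before capture. Lhx1os (ENSMUSG00000087211, chromosome 11 from 84525660 to 84535831, plus strand of GRCm38), the captured RNA, was at 2.27, 2.06, 180.1 and 149.5 in experiment 1 and 2.97, 2.44, 35.7 and 25.4 CPM in experiment 2. Its level without the specific probes was close in the 2 experiments, and both probe sets gave less in experiment 2, with an interaction of -2.78 (SE 0.23, p 8.08e-06, edgeR adjusted p 0.134). In this comparison no gene passed the adjusted p in edgeR, while 646 had an unadjusted p below 0.05, DESeq2 called 18 and edgeR without a filter on low counts called 39. Without either Input library edgeR called 64 or 65. Lhx1os was among the calls in DESeq2, without the filter and without either Input library.

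The 3 genes of smallest p were Lhx1os, Rbms2 and Efcab7. Rbms2, an RNA-binding protein gene, was at 51.3, 38.5, 304 and 157 in experiment 1 and 41.8, 32.4, 32.01 and 31.5 CPM in experiment 2, with -2.51 (SE 0.31, p 9.48e-05, edgeR adjusted p 0.518). Efcab7 was at 2.802, 2.84, 29.1 and 28.005 in experiment 1 and 3.12, 3.31, 6.15 and 7.19 CPM in experiment 2, with -2.28 (SE 0.28, p 9.5e-05, edgeR adjusted p 0.518). Others with the same pattern, chosen after their values were seen, were far more abundant. Cplx2, a regulator of vesicle fusion, was at 197, 329, 4253 and 3689 in experiment 1 and 295, 336, 625 and 975 CPM in experiment 2, with -2.65 (SE 0.35, p 0.000142, edgeR adjusted p 0.518). Rab3c, a GTPase of synaptic vesicles, was at 273, 414, 3974 and 2896 in experiment 1 and 362, 376, 584 and 782 CPM in experiment 2. Rad21, a subunit of cohesin, was at 259, 224, 2353 and 1644 in experiment 1 and 276, 211, 289.9 and 432 CPM in experiment 2. Erp29, a chaperone of the endoplasmic reticulum, was at 78.9, 76.3, 1314 and 798 in experiment 1 and 68.1, 50.9, 125 and 175 CPM in experiment 2. In each of these 4 the ODD and EVEN libraries of experiment 1 were high, those of experiment 2 were lower but above LacZ of that experiment, and the Input and LacZ libraries of both experiments were lower than every ODD and EVEN library of experiment 1. Gm48623, which lies near Cplx2 on chromosome 13, was at 3.996, 3.74, 61.9 and 57.2 in experiment 1 and 3.02, 6.01, 7.69 and 11.3 CPM in experiment 2.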

How the data were processed

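The series holds 8 total RNA libraries made with a stranded kit after rRNA removal, 4 from each of 2 independent experiments, in 4 groups of 2 (Input, LacZ, ODD and EVEN); the group and the experiment of each come from its title. Per the submitters' processing notes, which name tools without their roles, cutadapt 3.2, Bowtie2 2.4.2, Picard and HTSeq 0.13.5 were used with build GRCm38; no source used here gives the strand setting of the counting. The authors deposited whole-number read counts per gene for 55471 genes, not normalized. The authors' deposited FPKM values were the same counts divided by gene length and library total, so they are no second measurement. Of the genes, 55230 matched GENCODE M21, which gave names, classes and positions.

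Counts as deposited were fitted with edgeR 4.0.16 (R 4.3.3): genes kept by filterByExpr on group, TMM scaling, and the quasi-likelihood test of experiment with group as a block, with 3 residual degrees of freedom. The interactions of experiment with pull-down and with the Lhx1os probes left 2. P-values were adjusted by Benjamini and Hochberg over all 16524 genes tested. A call needed an adjusted p below 0.05 and, for the main comparison, 1 sign of the CPM difference in all 4 groups. No source says how cultures were pooled, so replicate error here is that between kinds of library of the same 2 experiments, and counting error falls with the totals of 7632775 to 24628435 counts. Libraries of a group differed between experiments far beyond sampling noise (chi-square per degree of freedom of 31.5 to 61.5), so none was a copy of another.

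Named genes were the 10 protein-coding and 3 other genes of largest change in each direction at a mean of at least 5 CPM, up to 4 called members of each list, and the 3 genes of smallest p or largest value in each interaction; other names were chosen after their values were seen, and some genes that the rule or a list holds are not reported here. The members and lists were chosen with earlier results of these data known, and the oligodendrocyte, astrocyte, Schwann and visceral motor lists after values of this comparison were seen. Alternatives were other scalings and filters, DESeq2 1.42.0, limma 3.58.1 on log2(FPKM + 1), no group block, pull-downs alone, a minimum change of 1 on the log2 scale, GC trends removed and each library left out; removal of length trends and leaving out libraries in the interactions were added after the data were seen. On simulated data with 200 changed genes the main test recovered 2.5% of changes of 0.5, 86% of changes of 1 (15 of 187 calls were false) and all changes of 2 (15 of 215 false) on the log2 scale.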

Additional observations from a re-analysis of the deposited data

Results flagged for a closer look

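In some genes the difference between experiments was not the same before and after capture, by the test of the interaction in edgeR with Benjamini-Hochberg adjustment: it was higher in the pull-downs than in Input in 212 genes and lower in 613. Values are the difference in the pull-downs minus that in Input on the log2 scale. Among the named genes of glia and stress it was higher for Gpr17 (0.83) and Hsp90aa1 (0.91). For Hes5 it was -0.88, for the retinoic acid carrier Crabp2 -1.67 and for the noncoding RNA Mirg -1.45. The ribosomal protein genes Rplp0 and Rps4x had -0.88 and -0.84. Of the mitochondrially encoded genes mt-Nd6 had -1.36, mt-Co1 -1.18, mt-Cytb -1.85, mt-Nd1 -2.47 and mt-Rnr1 -3.59. The last, an rRNA gene, had only 2, 2 and 1 counts in LacZ, ODD and EVEN of experiment 2. The histone genes Hist1h2bp, Hist1h3d, Hist1h2bl, Hist1h4n and Hist1h2ad had -1.94, -2.09, -1.96, -1.89 and -2.79, and Abhd11os had -3.12. RNA integrity and fragment length are not in the labels, and their part in these values was not tested.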

How the results depend on the processing

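The 4393 calls had no reversal under any setting run, and in most settings 48.3% to 97.7% of them were made again. A minimum change of 1 kept 25.02%, and the adjusted p without the rule on signs kept all by construction. Neither of these settings could reverse a call. Genes higher in experiment 2 numbered 1487 without the group block, 699 at a minimum change of 1, and 1205 to 3250 with 1 library left out; genes higher in experiment 1 numbered 1159, 400 and 957 to 3428, and 3550 with the pull-downs alone. Calls higher in experiment 2 made up 55.6% as reported, 46.9% with the pull-downs alone and 63.6% at a minimum change of 1. Of the 222 called members of lists 130 kept their call without any 1 library. The interaction with pull-down gave 389 genes higher with RLE size factors, 481 higher and 949 lower without a filter, 5 and 213 with length trends removed, 397 lower in DESeq2, and 33 to 525 higher and 357 to 920 lower with 1 pull-down library left out; it could not be fitted without an Input library. The interaction with the Lhx1os probes gave 6 genes higher and 33 lower without a filter, 18 lower in DESeq2, and 0 to 525 higher and 0 to 920 lower with 1 library left out; without a LacZ library it is the same contrast as the one with pull-down. Abhd11os, not called in the main comparison, was at -0.617 with the pull-downs alone and between -0.60 and 0.87 with 1 library left out, negative without either Input library; Rny1, also not called, was between -0.16 and 0.094, with 0.092 or 0.094 without a LacZ library and 0.027 or 0.029 without an EVEN library. Causes of these changes were not tested, beyond the smaller number of libraries. No paired analysis was possible because the replicate number is itself the contrast; libraries of a group are compared through the group block. Low counts limit genes under a few CPM, and 2 experiments give no estimate of how cultures vary.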
